A study of Arabidopsis thaliana with 2 samples.

Results

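The 9 genes described here encode enzymes that break down leucine, valine and lysine, and electron carriers. The carriers take electrons from this breakdown to the respiratory chain in plant mitochondria. They were chosen by name as MCCA, MCCB, IVD, ALDH6B2, AT4G33150 (LKR/SDH), D2HGDH, ETFALPHA, ETFBETA and ETFQO, with the difference between the same 2 arrays already known. Each gene had 1 probe set, and all 9 were among the 13355 genes that could be named from a single-gene probe set and among the 5975 genes past the signal filter. Because the difference between the arrays guided the choice, the differences of the 9 genes are given as a description.

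RNA was measured in axillary buds, the side shoots formed where a leaf joins the stem, of 2 Arabidopsis thaliana lines with 1 array per line. The axr3-1 line carries a mutation in AXR3 (IAA17), a repressor of auxin-responsive transcription that is stabilised by this allele. The axr1-12 line carries a mutation in AXR1, which is needed for the ubiquitin-dependent removal of such repressors. Both mutations were induced with ethyl methanesulfonate (EMS) in the col-0 background, and no wild-type array was analysed here. Plants of both lines grew on insecticide-treated compost (Intercept WG) at 21 °C in days of 16 h light and nights of 8 h, after sown soil had stood in the cold for 3 days, and buds were taken at about 2 mm. Plant age, and the number of plants behind each RNA, are not given in the sources used here. The series title contrasts dormant with active meristems, but the labels name neither line as dormant.

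Plants use amino acids as respiratory fuel when carbohydrate is short, as in prolonged darkness. For the branched-chain amino acids leucine, isoleucine and valine, an aminotransferase and a keto acid dehydrogenase produce acyl-CoA esters, and isovaleryl-CoA dehydrogenase (IVD) oxidises the ester derived from leucine. Lysine is opened by the double enzyme LKR/SDH, and a later product of its breakdown, 2-hydroxyglutarate, is oxidised by D2HGDH. In Arabidopsis, IVD and D2HGDH both hand electrons to the electron transfer flavoprotein, a pair of ETFALPHA and ETFBETA, and ETFQO passes them on to ubiquinone in the inner mitochondrial membrane.

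Signals are in the authors' MAS5 units, and each fold was taken after the axr1-12 array had been divided by the median ratio of the arrays, which lowers its signals by a log2 shift of 0.021. No replicate exists, so no difference has an error or a p-value. The only yardstick within the arrays came from the 32 genes with a pair of probe sets past the filter. Their log2 differences disagreed by a root mean square of 0.37, which holds probe effects but no variation between plants, RNA extractions or hybridisations. Median signals of the arrays were 51.8 (axr3-1) and 52.3 (axr1-12). All 18 hybridisation spike probe sets were lower in axr1-12, with log2 differences whose median was -0.61, and the 6 ratios of 3′ to 5′ signal of control genes differed by a median of -0.03 (range -0.39 to 0.20). The part of these control differences in the results below was not tested.

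The 6 genes for enzymes that act on the amino acids and their products were all higher in axr1-12 than in axr3-1 buds, whereas the flavoprotein subunit genes were lower and ETFQO was almost level. LKR/SDH was 4.77-fold higher in axr1-12, MCCA 4.18-fold higher and IVD 3.21-fold higher. These 3 of the 9 genes were at least 2-fold higher, against 2.28% of all genes tested, and none of the 9 was at least 2-fold lower, against 3.16%. A 2-fold difference in either direction was found for 5.44% of all genes. Of the 9 genes 7 had a log2 difference above 0, counting ETFQO at 0.04, against 48.4% of all genes. Since the genes were chosen on this contrast, nothing is read from these counts. Over the 9 genes the median log2 difference was 0.48, with a range from -0.61 to 2.25, beside a median of -0.02 over all 5975 genes.

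**Figure D1:**
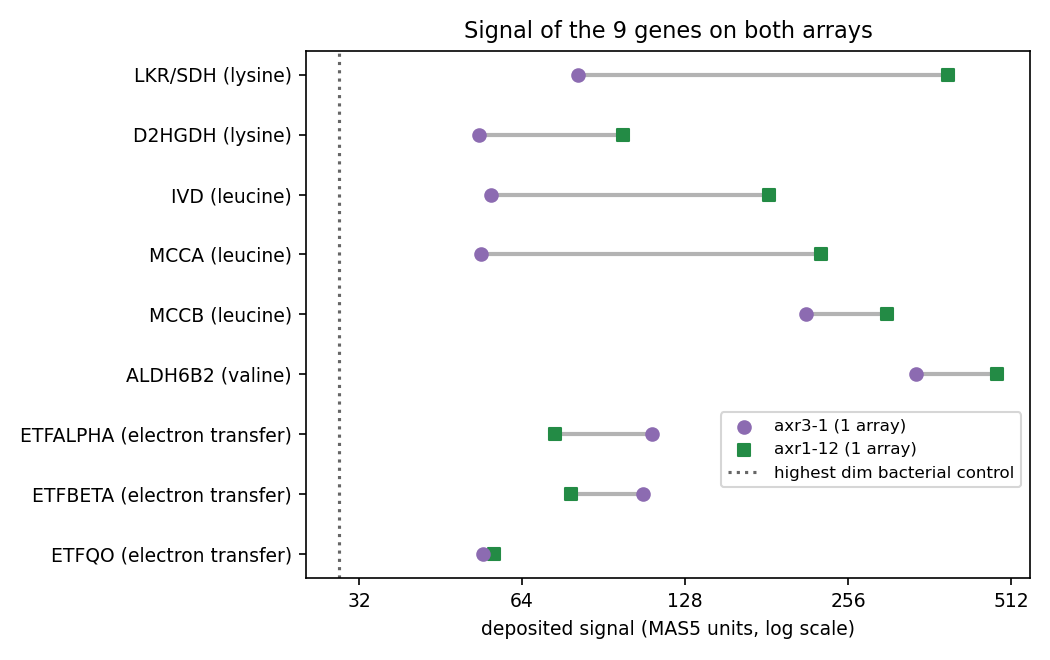
Deposited signal of each of the 9 genes (horizontal axis, MAS5 units on a log scale) on the axr3-1 array (circles) and the axr1-12 array (squares). The 6 upper genes have the square to the right of the circle, ETFALPHA and ETFBETA have it to the left, and all 18 signals lie to the right of the dotted line at 29.4 units, the highest dim bacterial control. Positions should be compared within a row, since probe sets differ in brightness for the same amount of RNA.

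Lysine breakdown starts with LKR/SDH, whose lysine-ketoglutarate reductase and saccharopine dehydrogenase activities lie on 1 polypeptide. The signal of LKR/SDH was 81.1 units on the axr3-1 array and 392 units on that of axr1-12, a log2 difference of 2.25. Only 4 of the 5975 genes tested had a larger difference in that direction. ALDH7B4, the aldehyde dehydrogenase assigned to the step after LKR/SDH, is not one of the 9 genes and was read at 497 and 831 units, 1.65-fold higher. D2HGDH, which oxidises D-2-hydroxyglutarate to 2-oxoglutarate, was read at 53.2 and 98.4 units, 1.82-fold higher. Differences at least as large in that direction were found for 3.63% of genes. The difference of LKR/SDH exceeded that of D2HGDH by 1.39 on the log2 scale, a description of these arrays without a test.

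In leucine breakdown, IVD converts isovaleryl-CoA to methylcrotonyl-CoA, and methylcrotonyl-CoA carboxylase adds a carboxyl group to that product. IVD had 56.1 units in axr3-1 and 183 units in axr1-12, a log2 difference of 1.68, which was rank 24 from the highest. MCCA, the biotin-carrying alpha subunit of the carboxylase, had 53.8 and 228 units, a log2 difference of 2.06 and rank 7. MCCB, the beta subunit that carries out the carboxyl transfer, had 214 and 302 units and was 1.39-fold higher, a difference that 12.4% of genes reached. On this pair of arrays the log2 difference of MCCA exceeded that of MCCB by 1.59, while MCCA and IVD were 0.38 apart. With 1 array per line, whether these gaps exceed the variation between plants was not tested.

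ALDH6B2, the methylmalonate semialdehyde dehydrogenase of valine breakdown, was read at 342 units in axr3-1 and 482 units in axr1-12, 1.39-fold higher. Its log2 difference of 0.47 was close to the 0.48 of MCCB and exceeded the probe set disagreement of 0.37 by little. ALDH6B2 and ALDH7B4 belong to the aldehyde dehydrogenase family, of which 8 genes were measured. The other 6 had log2 differences from -0.43 (ALDH11A3) to 0.15 (ALDH2C4). Since ALDH6B2 was chosen with this contrast known, nothing is read from its place among the 8 measured genes.

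The genes of the electron transfer segment did not share the higher signal of the enzymes before them. ETFALPHA had 111 units in axr3-1 and 73.7 units in axr1-12, 1.53-fold lower, and 10.6% of genes were at least as much lower. ETFBETA had 107 and 78.8 units, 1.38-fold lower, a difference reached by 16.4% of genes. The subunits of the flavoprotein differed by nearly the same amount, with log2 differences of -0.61 and -0.46 that were 0.15 apart. Both lay outside the probe set disagreement of 0.37, that of ETFBETA by little. ETFQO, the iron-sulphur flavoprotein that reduces ubiquinone, had 54.2 and 56.7 units, a log2 difference of 0.04 that lies within the probe set disagreement, so no direction is given. The electron transfer genes had a median of -0.46, beside 1.27 for the 6 enzyme genes, with ranges of -0.61 to 0.04 and 0.47 to 2.25. Since all 9 genes were chosen with this contrast known, nothing is read from the gap between these ranges. At a 1.5-fold limit, 4 of the 9 genes were higher, against 8.42% of all genes, and ETFALPHA was the 1 lower gene, against 11.3%. IVD exceeded its electron acceptor by 2.29 when set against ETFALPHA and by 2.15 when set against ETFBETA, and D2HGDH exceeded ETFALPHA by 1.47, all on the log2 scale of differences.

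**Figure D2:**
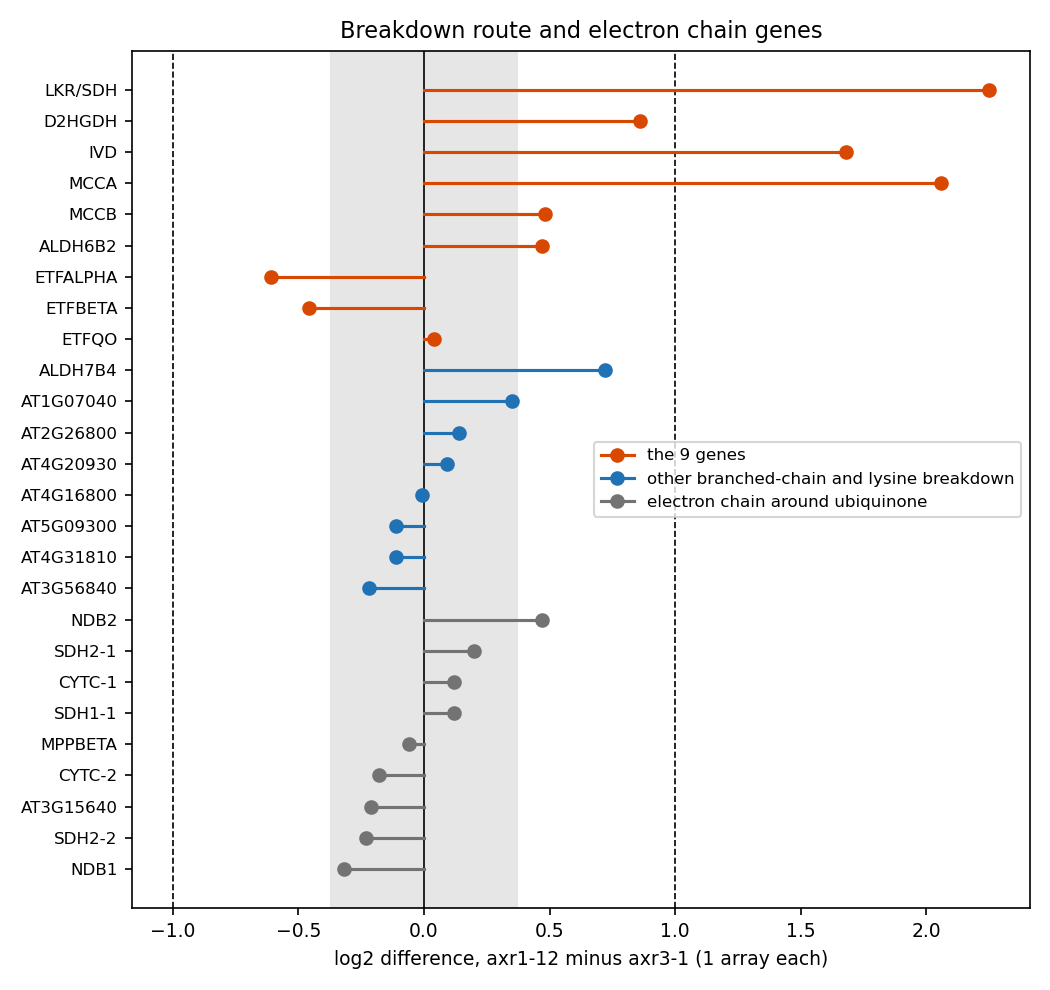
Log2 difference between axr1-12 and axr3-1 (horizontal axis, 1 array each) for the 9 genes. Below them are the 8 measured genes of a list of other branched-chain amino acid and lysine breakdown genes. The last 9 are the measured genes of the electron chain around ubiquinone, some of which act after it. The grey band marks the 0.37 by which probe sets of a gene disagreed and the dashed lines mark 2-fold; LKR/SDH, MCCA and IVD are the points beyond 2-fold, and most genes of both other lists lie inside the band.

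The other measured genes of the same breakdown differed by less than LKR/SDH, MCCA, IVD and D2HGDH. These named genes were chosen with this contrast known, so nothing is read from that order. A list of 19 further genes of branched-chain amino acid and lysine breakdown had 8 measured members. None of the 8 was at least 2-fold higher or lower, a count from which nothing is read since only 5.44% of all genes were. The median log2 difference of the 8 was 0.04. ALDH7B4, at 0.72, was the highest, followed by AT1G07040 at 0.35, from 244 units in axr3-1 to 315 units in axr1-12. Of the 8, 7 lay within the probe set disagreement. The aminotransferase genes BCAT-1 and BCAT-2 and the keto acid dehydrogenase gene BCE2 were on this list but had no single-gene probe set in the name table, so they are not analysed here. Another gene of the keto acid dehydrogenase, AT5G09300 (listed as BCKDH E1A2), was measured. Its log2 difference was -0.11, from 100 units in axr3-1 to 94.7 in axr1-12. AT2G26800 (listed as HML1) had a log2 difference of 0.14, from 188 to 210 units. Both lie within the probe set disagreement. The name table gives these genes by locus only.

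A further list held genes of the electron chain around ubiquinone, where the electrons from ETFQO arrive, and some of them act after ubiquinone. Of 20 listed genes 9 were measured, with a median log2 difference of -0.06, and 8 lay within the probe set disagreement. None differed 2-fold, a count from which nothing is read since only 5.44% of all genes did. The largest differences were those of the external NAD(P)H dehydrogenases. NDB2 went from 47.1 units in axr3-1 to 66.4 in axr1-12, 1.39-fold higher. Its axr3-1 signal was under the 51.4 units at which the filter began, so NDB2 was measured only through its higher axr1-12 signal. NDB1 went from 123 to 100 units, a log2 difference of -0.32 within the probe set disagreement. Succinate dehydrogenase, another enzyme that feeds ubiquinone, was represented by SDH1-1, SDH2-1 and SDH2-2, with log2 differences of 0.12, 0.20 and -0.23.

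Breakdown of other amino acids could be followed in only 2 measured genes of 22 listed. DELTA-OAT, the ornithine aminotransferase of arginine breakdown, went from 110 units in axr3-1 to 305 in axr1-12, 2.72-fold higher, and MGL, a methionine lyase, was level at a log2 difference of 0.04. Of the genes for synthesis of branched-chain amino acids, 4 of 17 were measured, with a median of 0.01. One of them, AT2G31810, was 2.02-fold higher, from 153 to 313 units, a value just past the 2-fold limit, and fell short of it after quantile scaling and with a pseudocount. The 2 measured genes of lysine synthesis, AT1G14810 and AT3G53580, had log2 differences of 0.16 and 0.14. Both lie within the probe set disagreement.

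Of 14 dark- and starvation-induced genes, the conditions under which this breakdown is known to rise in Arabidopsis leaves, only 2 were measured. AKINBETA1, a regulatory subunit of the SnRK1 kinase, was 2.16-fold higher, from 352 units in axr3-1 to 770 in axr1-12. BZIP53, a transcription factor that activates amino acid breakdown genes in Arabidopsis, had 436 and 422 units, a log2 difference of -0.07. The other 12, among them ASN1 and SEN1, had no single-gene probe set in the name table.

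The tissue could be checked against few markers, and in RNA of whole buds fewer cells of a type and less RNA per cell cannot be told apart. Of 13 bud and meristem genes, LAS was measured at 69.8 and 61.8 units, and CLV3, a stem cell gene, lay under the floor of 15.4 units on both arrays at 7.29 and 2.74 units. The leaf photosynthesis genes LHCB4.1 and PSAE-1, 2 of 5 listed, were 2.21- and 2.20-fold lower in axr1-12, opposite to the breakdown enzymes. Their signals were 5706 and 3473 units in axr3-1 and 2620 and 1604 units in axr1-12. Under quantile scaling they were 1.65- and 1.73-fold lower, and under loess scaling 1.61- and 1.71-fold lower, so neither reached 2-fold. The xylem gene GUT2 (IRX10), 1 of 4 listed, had 105 and 90.1 units, and the anther gene AMS, 1 of 3, had 46.8 and 66.5 units. In axr3-1 AMS was under the 51.4 units at which the filter began, so it was measured only through its higher axr1-12 signal. The root gene PYK10, 1 of 4, lay below the highest dim bacterial control of 29.4 units at 26.2 and 23.9 units, and none of the 4 senescence genes had a single-gene probe set. The part of these tissue differences in the results was not tested.

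**Figure D3:**
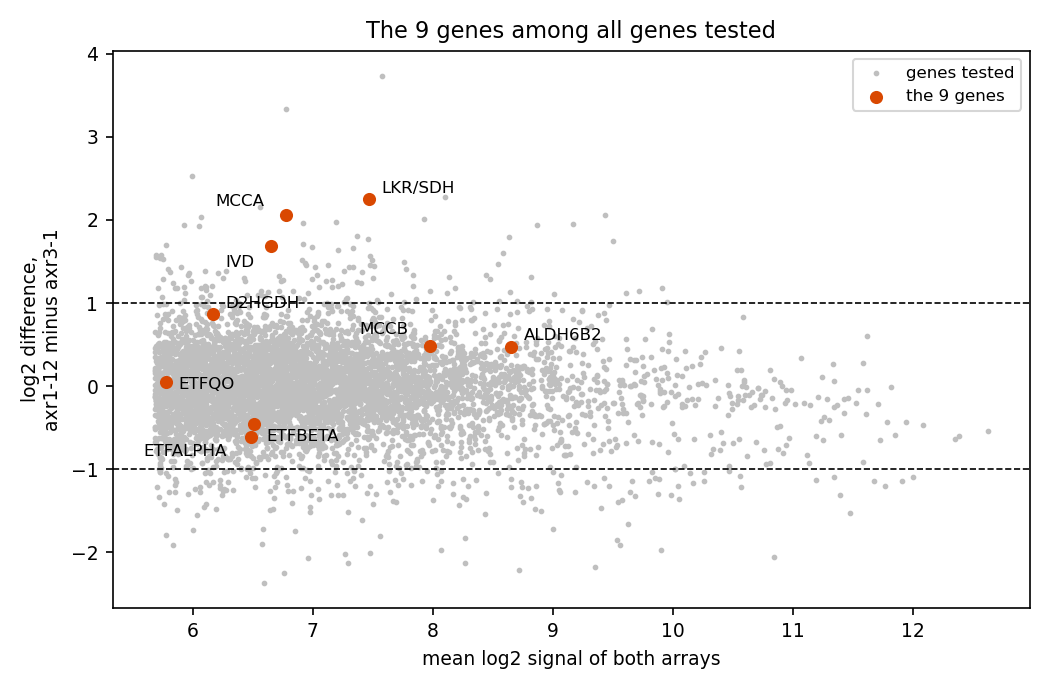
Log2 difference between axr1-12 and axr3-1 (vertical axis) against the mean log2 signal of both arrays (horizontal axis) for the 5975 genes tested (grey) and the 9 genes (orange), with dashed lines at 2-fold. LKR/SDH, MCCA and IVD stand at the upper edge of the cloud at moderate signal, and the electron transfer genes lie inside it.

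All 9 genes were above 51.4 units, the signal at which the filter began, on each array, so that none passed it through the brighter array alone. MCCA, IVD, D2HGDH and ETFQO nevertheless started from between 53.2 and 56.1 units in axr3-1, close to that limit. The part of low signal in their differences was not tested. When the tested genes were divided by mean signal into 4 groups of nearly equal size, from dim to bright, 2.61%, 1.47%, 2.88% and 2.14% of them were at least 2-fold higher in axr1-12. MCCA and IVD were in the second of these groups and LKR/SDH in the third.

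Over the 2 arrays, likeness of pattern can mean only a like difference. The 4 genes nearest to the median of the 9 were AT5G01950, AT5G17930, AT1G56700 and INH3, each with a log2 difference of 0.48. AT1G56700, for example, went from 228 units in axr3-1 to 322 in axr1-12. AT5G01950 and INH3, at 44.6 and 43.8 units in axr3-1, were under the filter limit of 51.4 units there and passed through axr1-12. A single difference is shared by many genes, so this likeness is weak.

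The 9 genes are spread over chromosomes 1, 2, 3, 4 and 5. Of their 18 nearest protein-coding neighbours in the TAIR10.1 order, 5 were measured and none differed 2-fold, a count from which nothing is read since only 5.44% of all genes did. The neighbour of MCCA, NET1D, had a log2 difference of 0.49, that of IVD, AT3G45310, 0.22, and that of LKR/SDH, AT4G33160, -0.54, while AT4G36390 beside D2HGDH had -0.65. NET1D, at 48.1 units in axr3-1, was under the filter limit of 51.4 units there and passed through axr1-12.

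The differences of the 9 genes were also computed under other ways of processing the arrays. Under the deposited scale, quantile scaling, loess scaling, no floor, and a pseudocount, LKR/SDH stayed between 2.05 and 2.28 on the log2 scale, MCCA between 1.79 and 2.08, and IVD between 1.44 and 1.70. D2HGDH ranged from 0.71 to 0.89 and so stayed under 2-fold, MCCB from 0.45 to 0.50 and ALDH6B2 from 0.46 to 0.53. ETFALPHA ranged from -0.64 to -0.52, ETFBETA from -0.49 to -0.39 and ETFQO from 0.03 to 0.07. The excess of MCCA over MCCB ranged from 1.34 to 1.59. The lowest differences of the 3 leading genes came with the pseudocount, which shrinks folds of dim probe sets by construction.

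**Figure D4:**
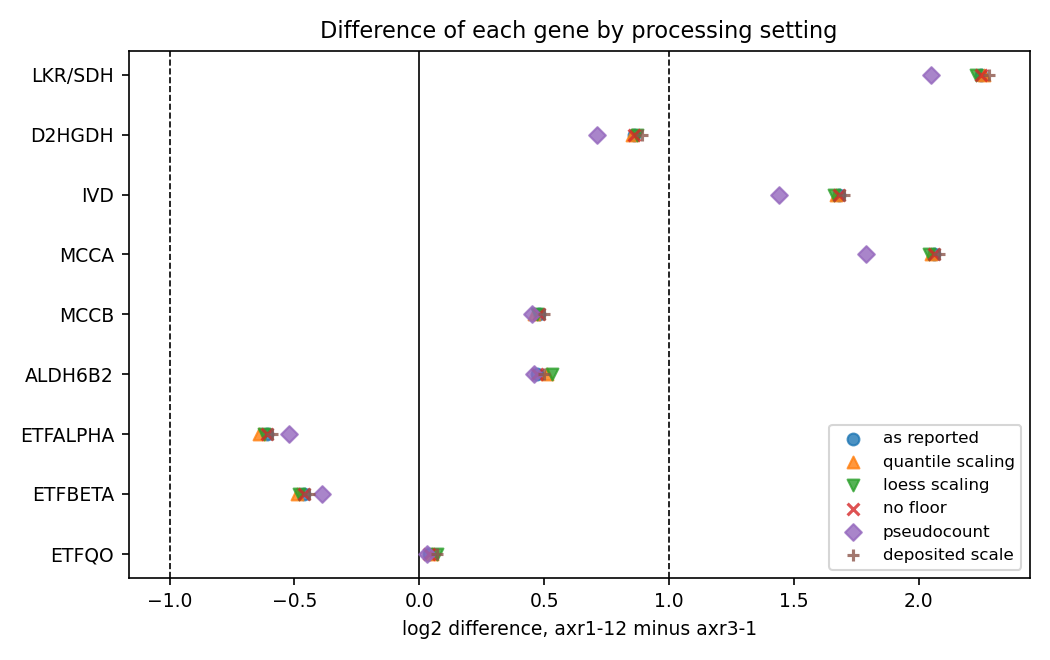
Log2 difference between axr1-12 and axr3-1 (horizontal axis) of each of the 9 genes as reported and under 5 other settings, shown by marker shape, with dashed lines at 2-fold. LKR/SDH, MCCA and IVD lie beyond 2-fold and D2HGDH under it in every setting drawn, and the markers of most genes nearly coincide apart from the pseudocount.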

How the data were processed

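The authors deposited a linear intensity for each probe set, made with MAS5 (no version named) per the submitters' processing notes. Both arrays had been scaled before deposit, since each had a mean of 100 once the highest and lowest 2% were removed. Of 22810 probe sets, 64 controls were left out. Of the rest, 13513 had 1 gene in the platform's GEO annotation, 503 had several and 8730 were not listed; symbols were updated through TAIR10.1.

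Signals of axr1-12 were divided by the median axr1-12/axr3-1 ratio of the brighter 50% of probe sets. A floor of 15.4 units, the pooled 25th percentile, was applied before log2. The filter kept the 11373 probe sets whose mean log2 signal reached the median, and the brightest stood for a gene. Python 3.11.15, numpy 2.4.6, pandas 2.3.3 and statsmodels 0.14.6 (loess, span 0.3) were used, and the steps were tested on simulated data. The genes and lists were chosen with earlier results of these data known. The named genes were the 9 genes, up to 4 genes of a list at least 2-fold different or else up to 2 with the largest difference, and the 4 most alike. AT5G09300, AT2G26800, MGL, BZIP53, CLV3, PYK10, the SDH genes, ALDH11A3, ALDH2C4, the neighbours and list genes without a probe set were named after their values or absence were seen. Promoter motifs were not analysed here. The number of arrays limits the precision.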

Additional observations from a re-analysis of the deposited data

How the results depend on the processing

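No paired analysis was possible because each line has 1 array. For the same reason no array could be left out. Of 54 values of the 9 genes under other settings, 18 could not move, since no gene lay near the floor or had a further probe set. The other 36 moved by at most 0.27 and none changed sign. Of 206 alternative values in all, 187 moved by less than 0.37 on the log2 scale or, for counts, stayed within 1.5 times. The 187 include the 18 values that could not move and counts of 0 that stayed 0, so nothing is read from this share. The count of 3 genes at least 2-fold higher was also 3 at 3-fold and with every scaling, floor and filter tried, and 4 at 1.5-fold, where 1 was lower. Leaving out the floor or the filter could not change this count, since all 9 genes passed the filter and none lay near the floor. With the filter at the 67th percentile the median of the 9 genes moved from 0.48 to 1.68, because D2HGDH and the electron transfer genes were no longer measured and 5 genes remained. The count of 1 synthesis gene became 0 at 3-fold, after quantile scaling and with a pseudocount, and 1 other breakdown gene was higher at 1.5-fold. Of all genes, 136 were higher and 189 lower. The counts were 503 and 673 at 1.5-fold, 28 and 25 at 3-fold, and 343 and 424 without a filter, with 88 higher at the 67th percentile. Over probe sets they were 1129 and 1308 at 1.5-fold, 86 and 53 at 3-fold, and 707 and 734 without a filter. MCCA, IVD, D2HGDH and ETFQO were dim in axr3-1, at 53.2 to 56.1 units, and the effect of background on their folds was not tested.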
